A study of Mus musculus with 6 samples.

Results

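The microRNAs (miRNAs) described here come from the imprinted Dlk1-Dio3 domain of mouse chromosome 12, on the side of the noncoding gene Mirg, from mir-379 to mir-410. Members were matched by name to a list of 40 names. No measured value enters that rule, although the list was drawn up with earlier results of these data known. The deposited small-RNA table held 37 of these names among its 898 miRNA genes, and lacked mir-299, mir-654 and mir-496, although it held mir-299a, mir-299b and mir-496a. To ask how miRNA levels change as embryonic stem cells (ESCs) become neuronal cells (NCs), the study sequenced small RNA from 3 ESC and 3 NC libraries. Both groups were cultures of E14Tg2a, an established mouse ESC line with no engineered allele in the labels. ESCs were kept in leukemia inhibitory factor (LIF), which holds them pluripotent, and NCs were LIF-free monolayers given 1 µM retinoic acid (RA) for 48 hours. The labels give 2 plates of ESC cultures as the source of RNA for each replicate, in the same words for NCs, and 3 replicate sets handled apart. They do not say whether the sets were separate cultures, so p-values measure the spread between these libraries, which may be technical.

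A miRNA is cut from a hairpin precursor, from either arm (5p or 3p), and guides an Argonaute protein to messenger RNAs mainly through its seed, the bases next to its 5′ end. In the Dlk1-Dio3 domain the protein-coding genes Dlk1, Rtl1 and Dio3 are read from the paternal chromosome, and the noncoding RNAs Meg3, Rian and Mirg and the miRNAs from the maternal one. The cluster is known for its activity in brain and in ESCs with intact imprinting, and one member, mir-134, is known to limit the size of dendritic spines in neurons. Allele of origin was not measured in these libraries.

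All 37 members lie on GRCm38 chromosome 12 (RefSeq positions), over 38901 bases from the start of mir-379 (109709060 to 109709125) to the end of mir-3072 (109747878 to 109747960). mir-410 (109743715 to 109743795) was the last member but 1, and mir-3072 lies beyond it. Only mir-299b is on the minus strand, opposite mir-299a. The cluster is named here by the side of Mirg. In GENCODE, however, the Mirg gene spans 109729764 to 109749460, and 24 members lie upstream of it. Of the 13 members within Mirg, 4 lie in an intron, 4 in an exon and 5 across the edge of an exon.

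The mature sequences below are those of RefSeq on GRCm38, written 5′ to 3′, with the seed (bases 2 to 8) in capitals. RefSeq gave 70 mature sequences for the 37 members. The first set holds the 5 most abundant members, which were the same in ESCs and NCs, and the 2 members that passed the test given below. The deposited table gives a value for each hairpin gene, not for each arm, so which of the paired sequences was read cannot be told.
miR-541-5p: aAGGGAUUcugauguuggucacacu
miR-541-3p: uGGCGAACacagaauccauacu
miR-411-5p: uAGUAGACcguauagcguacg
miR-411-3p: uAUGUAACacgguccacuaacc
miR-134-5p: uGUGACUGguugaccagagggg
miR-134-3p: cUGUGGGCcaccuagucacc
miR-679-5p: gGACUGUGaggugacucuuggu
miR-679-3p: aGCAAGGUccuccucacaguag
miR-666-5p: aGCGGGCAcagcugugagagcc
miR-666-3p: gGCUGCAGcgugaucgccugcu
miR-329-5p: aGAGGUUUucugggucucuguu
miR-329-3p: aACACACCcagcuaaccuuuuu
miR-412-5p: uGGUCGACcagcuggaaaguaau
miR-412-3p: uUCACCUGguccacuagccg

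Among the 70 mature sequences given, seeds were shared in 6 pairs of members, and no seed was shared by over 2. RefSeq gave only the 5p arm for mir-376c, mir-487b and mir-539 and only the 3p arm for mir-485. A seed shared through a missing arm would not be seen here. The pairs are printed because members with the same seed can pair with the same target sites.
miR-379-3p: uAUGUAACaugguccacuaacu
miR-411-3p: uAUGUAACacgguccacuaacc
miR-379-5p: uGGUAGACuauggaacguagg
miR-1193-5p: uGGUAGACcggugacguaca
miR-299a-3p: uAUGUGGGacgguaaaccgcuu
miR-299b-3p: uAUGUGGGacgguaaacc
miR-1197-5p: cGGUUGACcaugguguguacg
miR-758-5p: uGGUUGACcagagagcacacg
miR-410-5p: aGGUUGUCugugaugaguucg
miR-494-5p: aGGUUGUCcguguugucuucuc
miR-376b-5p: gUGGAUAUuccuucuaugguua
miR-376c-5p: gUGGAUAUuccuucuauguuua

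RefSeq gave a hairpin sequence for 35 of the 37 members, and the rest could not be compared. Among the 35, the longest runs of bases common to hairpins of different members were 31 for mir-376b and mir-376c. Next came 21 for mir-299a and mir-299b, 21 for mir-411 and mir-758, and 20 for mir-376b and mir-487b. How the authors counted reads that fit several hairpins is not given in the sources used here, so the separate values of these members are uncertain. Next to the abundant mir-411, mir-758 had at most 1 read in any library.

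The members also shared a short sequence that the choice of members did not use. The letters GGUNNAC, in which N is any base, stood in 22 of the 70 mature sequences (31.4%) and in 15 of the 37 members. The same letters stood in 13 of 1604 other distinct mouse mature miRNAs (0.810%), and in 0 of 35 from the other imprinted miRNAs of chromosome 12. The letters were searched in mature sequences as written, on that strand only, and were picked after these sequences had been seen. Below, capitals mark these letters in members of contrasting level, including both arms of mir-412.
miR-412-5p: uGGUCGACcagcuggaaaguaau
miR-412-3p: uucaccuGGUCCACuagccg
miR-134-5p: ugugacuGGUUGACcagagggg
miR-411-3p: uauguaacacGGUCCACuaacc
miR-379-5p: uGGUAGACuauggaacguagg
miR-379-3p: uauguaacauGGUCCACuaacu
miR-409-3p: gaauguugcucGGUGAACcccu
miR-154-3p: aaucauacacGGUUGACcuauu

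Levels of the members differed by several orders of magnitude. Values are normalized reads, which are reads over the size factor of their library, and for each group the authors deposited the mean over 3 libraries. Reads of the libraries were recovered from these means as whole numbers, and the libraries of each group are called A, B and C, from the largest size factor to the smallest. mir-541 (109742409 to 109742498, in an intron of Mirg) had the largest mean, 128072 in ESCs and 80291 in NCs. mir-411 (109710175 to 109710256, upstream of Mirg) followed with 82079.7 in ESCs and 49383 in NCs. These 2 members together made up 95.5% of the summed means of the cluster in ESCs and 93.6% in NCs. Both were too abundant for their library reads to be recovered, so their lower NC means, with NC to ESC ratios of 0.627 and 0.602, carry no error and no test.

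The whole cluster held 19.1% of the summed means of all miRNAs in ESCs and 8.64% in NCs. mir-10a, a Hox-cluster miRNA, made up much of the NC total, and without mir-10a the cluster held 16.3% of it. In bulk cultures, fewer cells that express a miRNA and less of it in each cell cannot be told apart. Without mir-541 and mir-411 the other 35 members held 0.865% of the summed means in ESCs and 0.549% in NCs.

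mir-134 (109734139 to 109734209, in a Mirg exon) was the third member by level, with 5038, 4288 and 4125 normalized reads in ESC libraries A, B and C and 3776, 4089 and 4121 in NC libraries A, B and C. The NC libraries all lay below the lowest ESC library, but the closest values were 4121 and 4125, and the log2 difference of -0.18 (SE 0.233) was not called (adjusted p = 0.748, limma-voom). The size factor of ESC library B equals the ratio for mir-134 itself. Its normalized value in that library is therefore the geometric mean of its reads before scaling over the 6 libraries. mir-679 (109715577 to 109715650, upstream of Mirg) had 827, 655 and 1049 normalized reads in ESC libraries A, B and C and 933, 967 and 1325 in NCs. mir-666 (109717085 to 109717183, upstream of Mirg) had 509, 470.4 and 1129 in ESCs and 588, 735 and 1223 in NCs. The groups overlapped for both, and library C was the highest of each group. Their log2 differences of 0.34 (SE 0.305) and 0.28 (SE 0.463) were not called, with limma-voom adjusted p-values of 0.595 and 0.794.

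The remaining members ranged down to 0.205 in ESCs and 0.289 in NCs. In ESCs 12 members had means from 100 to 1000, 11 from 10 to 100 and 11 of 10 or less, and in NCs these counts were 10, 12 and 11. The median member had a mean of 53.9 in ESCs, where the median over all detected miRNAs was 10.5. In NCs these medians were 40.8 and 12.7. All 37 members were above 0 in the table, but 6 did not exceed the floor in either group, which is the mean that 3 reads in every library would give (3.51 in ESCs and 3.17 in NCs). Floors and counts here cover counting error only.

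**Figure D1:**
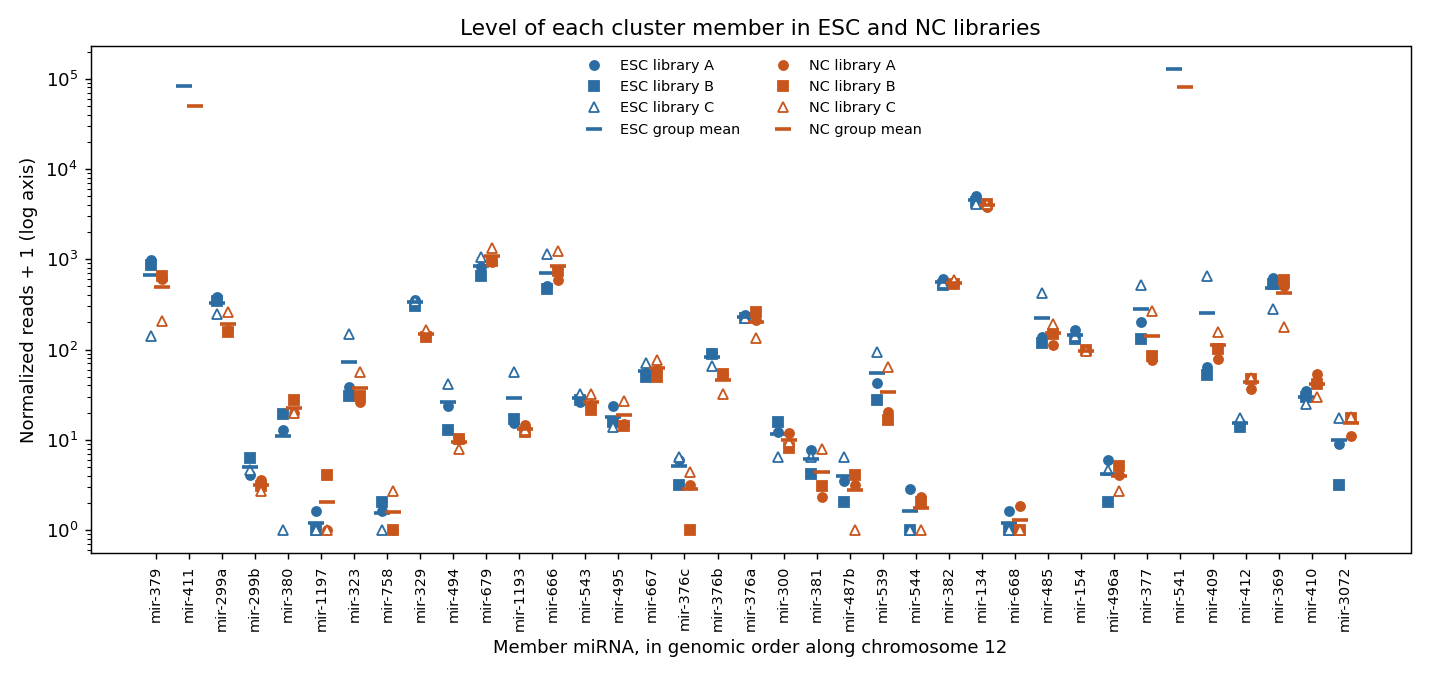
Normalized reads plus 1 (log axis) of the 37 members in genomic order, for ESC libraries (blue) and NC libraries (orange) A (circle), B (square) and C (open triangle), with the group mean as a bar. mir-541 and mir-411 have group means only and stand far above the next member, mir-134, while 11 members of each group have means of 10 or less.

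Some neighbours on the chromosome differed widely in level. mir-411 lies 1049 bases beyond mir-379, whose means were 661 in ESCs and 489 in NCs. mir-541 lies 659 bases before mir-409, with means of 256 and 111. Within the 4 hairpins from mir-409 to mir-410, which follow each other at 52, 49 and 218 bases, the ESC means were 256, 14.5 (mir-412), 480 (mir-369) and 28.8 (mir-410). These values are of reads, which depend on how well each sequence is captured in a library as well as on its amount, so their order is not an order of molecules.

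To compare NCs with ESCs, limma-voom was fitted to the recovered reads of all resolved miRNAs, and a miRNA was called at an adjusted p under 0.05. Of 37 members, 35 were resolved and 26 had at least 10 reads in 3 or more libraries. The 9 that did not were mir-1197, mir-299b, mir-376c, mir-381, mir-487b, mir-496a, mir-544, mir-668 and mir-758. Among the 26 tested members 2 were called (7.69%), mir-329 lower and mir-412 higher in NCs, where 16.0% of all 319 tested miRNAs were called, 5.96% lower and 10.0% higher. The share of members called was thus not above that of all miRNAs. The count was 0 without ESC library A, ESC library B, NC library A or NC library B, and 2 without either library C.

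mir-329 (109713481 to 109713577, plus strand, upstream of Mirg) had 348, 305 and 342 normalized reads in ESC libraries A, B and C and 145, 138 and 164 in NC libraries A, B and C. Every NC library lay well below every ESC library, and library C did not stand apart. The log2 difference was -1.15 (SE 0.216, adjusted p = 0.0143, limma-voom). mir-382 (109733771 to 109733846, across a Mirg exon edge), had 596, 521 and 539 normalized reads in ESCs and 538, 524 and 592 in NCs. The ratio of mir-329 to mir-382 within a library, which no scaling between libraries can change, was 0.585, 0.586 and 0.634 in ESCs and 0.269, 0.264 and 0.277 in NCs. mir-382 was chosen for this ratio after its values were seen. Without 1 of ESC A, ESC B, NC A or NC B the mir-329 difference kept its direction but lost its call, with limma-voom adjusted p-values of up to 0.0907 over the fits that left out a library.

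mir-412 (109743289 to 109743368, plus strand, across a Mirg exon edge) had 14.2, 12.8 and 16.4 normalized reads in ESC libraries A, B and C and 35.5, 46.1 and 47.9 in NC libraries A, B and C. The groups did not overlap, although ESC library C rested on 9 reads. The log2 difference was 1.51 (SE 0.316, adjusted p = 0.0223, limma-voom). It kept its direction and lost its call without the same 4 libraries, with adjusted p-values of up to 0.139 in limma-voom. Its neighbours in the same stretch did not pass the test. mir-369 differed by -0.31 on the log2 scale (SE 0.556, limma-voom adjusted p = 0.809), with 624, 533 and 281 normalized reads in ESCs and 501, 583 and 176 in NCs. mir-410 differed by 0.51 (SE 0.318, limma-voom adjusted p = 0.394), with 33.9, 28.8 and 23.7 in ESCs and 52.5, 41.0 and 29.1 in NCs.

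The 24 tested members without a call had adjusted p-values from 0.111 to 0.981 (limma-voom), and this does not show that they did not change. For 5 of them, mir-134, mir-382, mir-376a, mir-543 and mir-667, the 95% interval of the difference stayed within a 2-fold change either way. For the other 19 the interval held a 2-fold change. The nearest to a call were mir-376b and mir-154, whose unadjusted p-values were under 0.05. mir-376b, whose precursor family is known for editing of its seed by adenosine deaminases, had 91.2, 88.5 and 63.9 normalized reads in ESCs and 52.0, 52.2 and 30.8 in NCs (log2 -0.82, SE 0.288, limma-voom adjusted p = 0.111). mir-154 had 164, 130.1 and 141 in ESCs and 95.8, 97.3 and 95.8 in NCs (log2 -0.57, SE 0.209, limma-voom adjusted p = 0.125). In neither did the groups overlap. Such a lack of overlap was found in 8 of the 26 tested members (6 lower and 2 higher in NCs), and in 31.3% of all tested miRNAs.

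**Figure D2:**
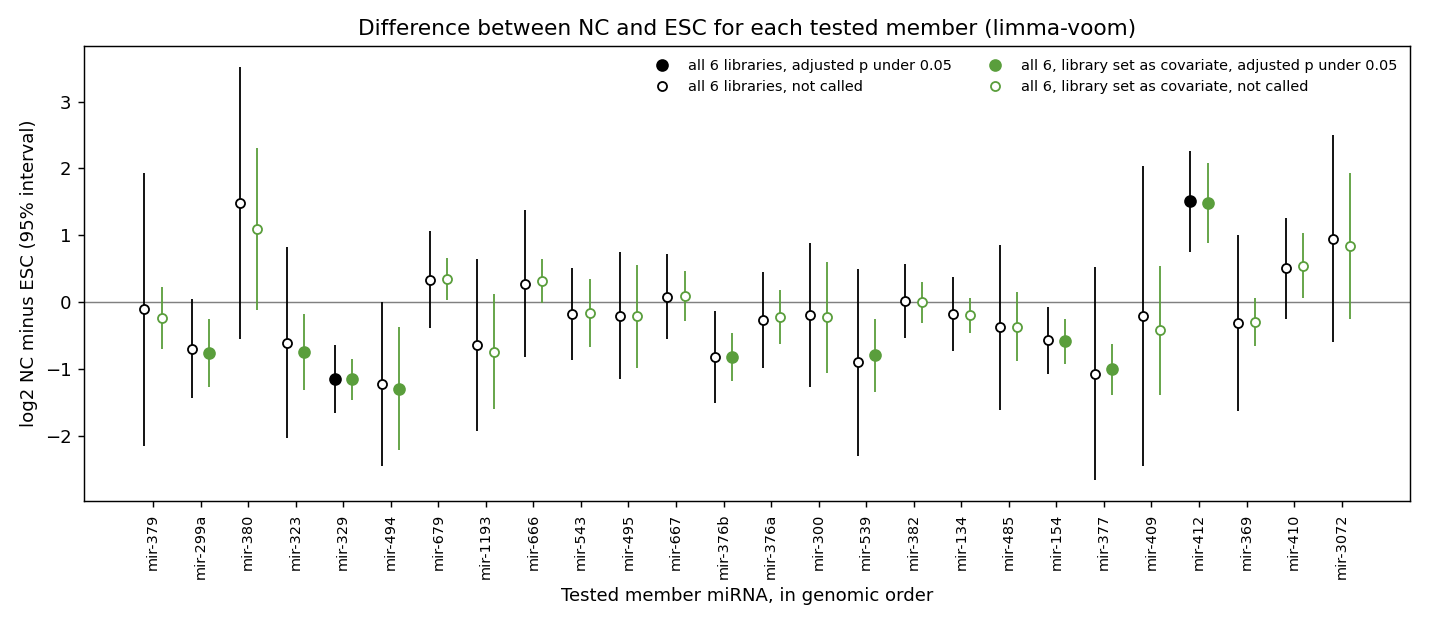
Difference NC minus ESC (log2) with its 95% interval for the 26 tested members in genomic order, from limma-voom on all 6 libraries (black) and with the library set as covariate (green), filled where the adjusted p was under 0.05. Without the covariate mir-329 (-1.15) and mir-412 (1.51) are called, and with it 9 members are, 8 of them lower in NCs.

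The tested members with the widest intervals, mir-409, mir-379 and mir-380, were also those in which library C, the shallowest of each group, lay farthest from A and B in ESCs. In mir-380 the ESC libraries A, B and C had 11.7, 18.1 and 0 normalized reads, and the NC libraries 18.6, 26.6 and 18.8. Over the 26 tested members, the log2 deviation of library C from the mean of A and B had an SD of 1.53 in ESCs and 0.834 in NCs. The difference of A from B had an SD of 0.399 in ESCs and 0.283 in NCs. The deviations of the ESC and NC libraries C correlated across these members (Pearson's r = 0.589, Spearman's rho = 0.588), which are not independent replicates and share their libraries, and had the same sign in 20 of 26. The labels give no batch for library C.

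mir-409 (109743158 to 109743236, in a Mirg intron) had 62.3 and 51.2 normalized reads in ESC libraries A and B but 654 in ESC library C, and 78.0, 100.3 and 156 in NCs. Its NC mean thus lay under its ESC mean (111 against 256) while libraries A and B alone gave a higher level in NCs. mir-377 (109740510 to 109740577, in a Mirg exon) had 199, 131 and 521 in ESCs and 75.0, 84.0 and 267 in NCs, so that library C was the highest in both groups and each NC library lay below the ESC library of its rank. mir-379 went the other way, with 974, 870.5 and 139 in ESCs and 606, 656 and 205 in NCs, library C being the lowest in both.

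Further members in which library C was over 2-fold above A and B in ESCs included mir-485, with 137, 116 and 417 normalized reads in ESCs and 112, 147 and 192 in NCs. mir-323 had 37.6, 29.9 and 146 in ESC libraries A, B and C, and 25.1, 29.7 and 54.7 in those of NCs. In all, library C lay over 2-fold above the others in 9 tested members and over 2-fold below them in 4 in ESCs, and in 2 and 2 in NCs. Members upstream of and within Mirg were found on both sides.

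**Figure D3:**
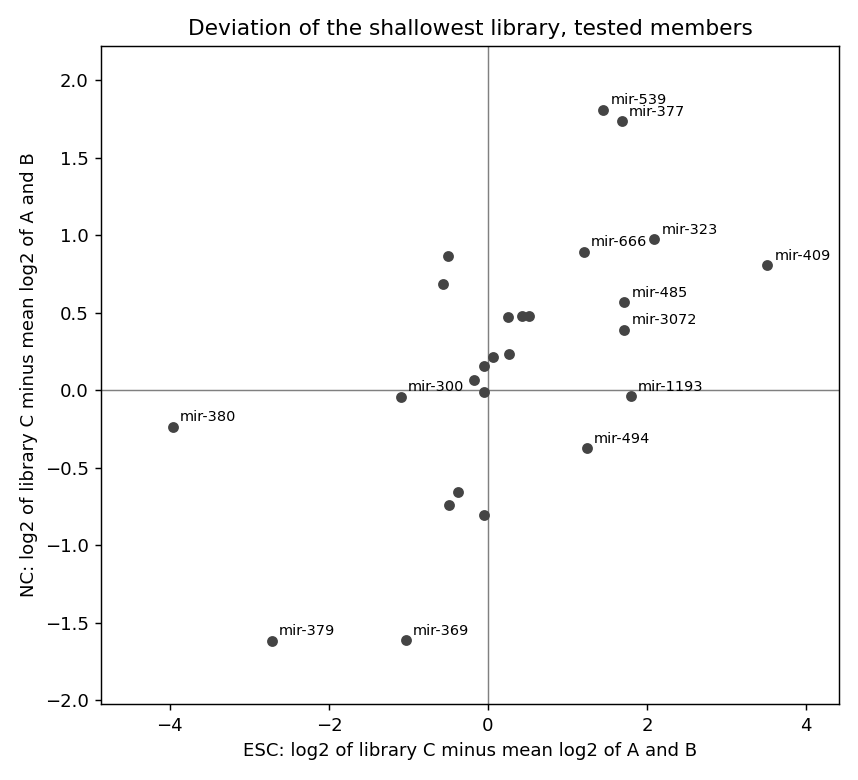
Deviation of library C from the mean of libraries A and B (log2) in ESCs (x axis) and NCs (y axis), 1 point for each of the 26 tested members, with names where either deviation is over 2-fold. mir-539, mir-377, mir-323 and mir-409 lie up in both groups and mir-379 and mir-369 down in both, and 20 of the 26 have the same sign.

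With the library set (library C against A and B) as a covariate, limma-voom called 9 of the 26 tested members (34.6%), against 45.1% of all tested miRNAs. Lower in NCs were 8, mir-154, mir-299a, mir-323, mir-329, mir-376b, mir-377, mir-494 and mir-539, where 21.6% of all tested were called lower, and higher was 1, mir-412, where 23.5% were. For mir-377 the log2 difference was -1.01 (SE 0.174, adjusted p = 0.000838, limma-voom with the covariate), against -1.07 (SE 0.671) without it. mir-494 had 22.8, 11.7 and 40.2 normalized reads in ESCs and 9.10, 9.21 and 6.84 in NCs, and its log2 difference was -1.30 (SE 0.413, limma-voom adjusted p = 0.0263 with the covariate). mir-539 had 41.9, 26.7 and 93.2 in ESCs and 19.5, 15.4 and 63.3 in NCs. It differed by -0.80 on the log2 scale (SE 0.243, limma-voom adjusted p = 0.0220 with the covariate). The covariate takes library C of each group as 1 set, which the sizes of the libraries define and no label states.

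Libraries A and B alone gave 11 called of 26 (42.3%), against 50.2% of all miRNAs tested in them. The 7 called lower in NCs were mir-154, mir-299a, mir-329, mir-376b, mir-377, mir-379 and mir-539 (21.7% of all tested were lower), and the 4 called higher were mir-409, mir-410, mir-412 and mir-666 (28.4% were higher). In mir-299a, which had 385, 345 and 245 normalized reads in ESCs and 164, 157 and 258 in NCs, the difference in A and B was -1.18 on the log2 scale, while library C gave 0.077. mir-379 was called lower in A and B (-0.56), while library C gave 0.56 with no test. mir-409 was called higher in A and B (0.57, adjusted p = 0.0256, limma-voom). The sign of the difference was opposite between libraries A and B and library C in 8 of the 26 tested members. In each of the 3 fits the share of tested members called in either direction was under that of all tested miRNAs. By direction, members called lower in NCs exceeded the share of all tested with the covariate (8 of 26, against 21.6%) and in libraries A and B (7 of 26, against 21.7%). Members called higher fell below it in both (1 of 26, against 23.5%, and 4 of 26, against 28.4%). These shares rest on few members, which share their libraries, and whether they differ from those of all tested miRNAs was not tested.

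**Figure D4:**
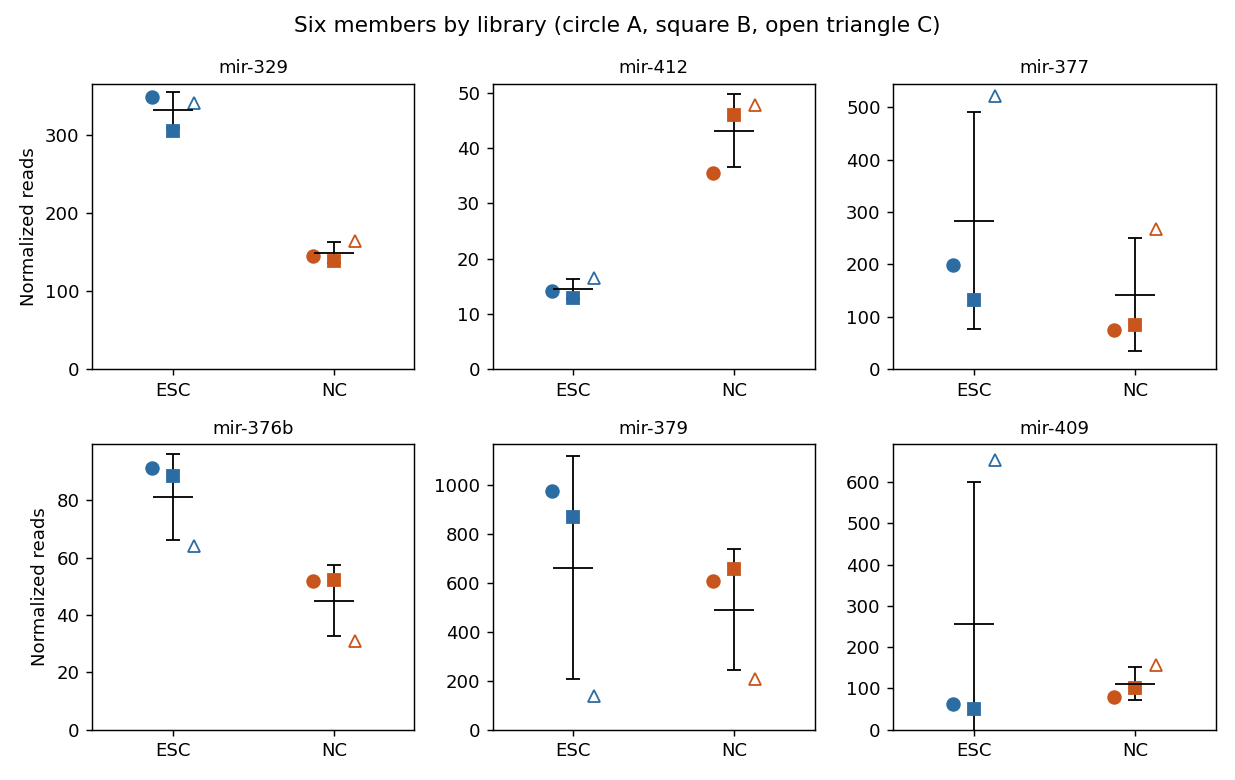
Normalized reads of 6 members in each ESC (blue) and NC (orange) library, with library A as a circle, B as a square and C as an open triangle, and the mean with its SD over 3 libraries in black (bars are cut at 0). In mir-329 and mir-412 the groups stand apart in every library, whereas in mir-377, mir-379 and mir-409 library C lies away from A and B in ESCs.

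Over the group means of all 37 members the median log2 difference (pseudocount of 1) was -0.22, with 25 lower and 12 higher in NCs, from -1.47 for mir-494 to 1.51 for mir-412. Over the 634 miRNAs detected in either group the median was 0.07, and 47.5% were lower. This scale understates the change of low members. Equal totals in both groups correspond to a shift of -0.48 for every miRNA before the pseudocount, and gave the members a median of -0.67. Totals made equal once mir-10a was set aside correspond to a shift of 0.44 and gave a median of 0.18. Both scalings act on all miRNAs alike. Once centred on the median of all miRNAs whose mean reached 10 in either group, the 37 members had a median of -0.17. Only 28 members had such a mean themselves. Their median before centring was -0.33, beside -0.06 for all 345 miRNAs with such a mean. The differences of mir-329 and mir-412 were larger than either shift. Summed over the 35 resolved members, libraries A, B and C held 10518, 8995 and 10402 normalized reads in ESCs and 8179, 8890 and 9343 in NCs. Much of each sum was mir-134, and without it libraries A, B and C held 5480, 4706 and 6277 in ESCs and 4403, 4801 and 5222 in NCs. The groups overlapped with and without mir-134.

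Position and the shared letters were also compared with the differences. The 24 members upstream of Mirg had a median of -0.46 and the 13 within it -0.17. Of these, 16 and 10 were tested, with limma-voom medians of -0.23 and -0.19, and 1 was called in each set. Members with GGUNNAC had a median of -0.43 and those without -0.21. Here 11 and 15 were tested, again with 1 called in each, where 16.0% of all tested miRNAs were called. Their limma-voom medians were -0.20 and -0.27, so among tested members the order was reversed. These comparisons of sets are descriptions with no test.

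The other imprinted miRNAs of chromosome 12, which include the miRNAs antisense to Rtl1, had 16 of 18 names in the table and a median of -0.02. Of 12 tested, 1 was called, mir-540, which was lower in NCs, where 16.0% of all tested miRNAs were called. The 12 tested had a limma-voom median of -0.19, close to the -0.20 of the 26 tested members. The 5 imprinted miRNAs listed from other chromosomes had a median of 0.49, with 2 tested and 0 called in limma-voom (1 at an unadjusted p under 0.05).

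As a check of the groups, the miR-290 and miR-302 clusters, which mark pluripotent cells, were lower in NCs in 12 of 12 members (summed means 137809 in ESCs and 31426 in NCs). The neuronal and RA list was higher in NCs in 9 of 9 (4784 in ESCs and 812873 in NCs, most of the NC sum being mir-10a). The neurogenic mir-9 and mir-124 genes summed to 1272 in ESCs and 2319 in NCs. Of markers of other cell types, the 4 muscle miRNAs were at 0 in both groups, of the 2 blood miRNAs 1 was higher and 1 lower in NCs (sums of 926 and 359), mir-126a of endothelium had means of 2563 and 3086, and mir-122 of liver was under the floor. Their part in the differences was not tested. Resolved reads ranged from 97151 to 368743 in a library, and the size factors ran from 0.547 to 1.62 for ESCs and from 0.585 to 2.31 for NCs.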

How the data were processed

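Small RNA was sequenced from 3 ESC and 3 NC libraries, grouped by the sample labels. The authors deposited 1 table with the group mean signal of each of 898 miRNA genes, which is reads divided by a size factor and averaged over libraries. The deposited ratio (fold change), log2 fold change and p-value columns hold the authors' own comparison and were not used. The submitters' processing notes name DESeq and build mm10 (GRCm38), and the adapter trimming, aligner, miRNA annotation and counting are not given in the sources used here. Columns left unused because they held samples of no known label numbered 0.

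Reads of each library were recovered from the means, deposited with 10 decimals, as the whole numbers that give the mean exactly when divided by the size factors. Means up to 20000 were attempted. This resolved 540 of 549 miRNAs above 0 in ESCs (98.4%, holding 24.7% of the signal) and 583 of 602 in NCs (96.8%, holding 11.2%). The recovered libraries carry no replicate number. A count test on deposited counts was not possible. The recovered reads, scaled by these size factors, were fitted with voom in limma 3.58.1 under R 4.3.3. A miRNA entered the fit if no fewer than 3 libraries (2, in fits with 2 libraries in a group) held 10 reads of it, with Benjamini-Hochberg adjustment over all tested and a threshold of 0.05. In all, 13 limma fits were made. Recovery and fit were tested on simulated data. Medians used log2 of the group means plus 1. Positions and mature sequences came from RefSeq (GRCm38), matched by symbol, and gene structure from GENCODE M21. Python 3.11.15, numpy 2.4.6, pandas 2.3.3, scipy 1.17.1, numba 0.67.0 and matplotlib 3.10.9 were used.

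The members and lists were chosen with earlier results of these data known. Library values were to be given for called members, for the 5 most abundant, and for members that share a seed, sequence or neighbouring position with these. mir-154, mir-323, mir-376b, mir-380, mir-485 and mir-539 were added after their values were seen. Alternatives covered the filter, weights, scaling, libraries, covariate, threshold and pseudocount.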

Additional observations from a re-analysis of the deposited data

How the results depend on the processing

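No paired analysis was possible because libraries rebuilt from group means cannot be tied to the replicate numbers of the labels. No replicate block was therefore fitted. The 2 members called stayed 2 with limma-trend, with no filter on reads, with scaling to totals and with a 2-fold minimum. They were 1 with at least 10 reads in every library, where 19 members were tested and mir-412 was not, 9 with the library set as covariate, 11 in the 2 deeper libraries of each group, and from 0 to 2 when 1 library was left out. The count was 0 without ESC library A, ESC library B, NC library A or NC library B, where 17, 19, 29 and 22 of all tested miRNAs were called against 51. The cause was not tested.

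The median of the members was -0.22 and reversed to 0.18 at the same total without mir-10a, by the shift itself, which acts on all miRNAs alike. The other scalings, pseudocounts and filters gave -0.67 to -0.17. Without mir-10a in the total the cluster held 19.1% in ESCs and 16.3% in NCs, and without mir-541 it held 7.99% and 3.63%.

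For 15 of the tested members the difference was taken again under each setting. Of 178 values with a test, 149 kept direction and side of the threshold, 15 gained a call, 8 lost it and 6 reversed. The 15 gained calls are calls by which members were chosen, so that count was fixed by the choice. Other tested members, which were never called, are left out of these counts. Of 15 values from the shallowest libraries, which have no test, 13 kept direction and 2 reversed. The difference they are set against already includes these libraries. Against libraries A and B alone, the sign was opposite in 8 of the 26 tested members. mir-379 (-0.11) reversed in the shallowest libraries (0.56) and ranged from -1.17 to 0.54 when 1 library was left out (0.31 without ESC A, 0.36 without ESC B, 0.54 without NC C). mir-299a reversed in the shallowest libraries (0.077). mir-666 (0.28) ranged from -0.033, without NC C, to 0.77. mir-409 (-0.21) reversed in the deeper libraries (0.57) and ranged from -1.06 to 0.86, the latter without ESC C. mir-329 ranged from -1.23 to -1.08 and mir-412 from 1.43 to 1.69. Depth limits the members under the read minimum, and mir-541 and mir-411 have no library values.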
